A study of Mus musculus with 12 samples.

Results

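Platelets are cell fragments shed by megakaryocytes, the giant cells of the bone marrow. In RNA-seq of sorted neutrophils, 34 mouse genes linked to platelets or megakaryocytes were followed. The 34 genes cover granule contents, adhesion receptors, receptors for thrombin, ADP and ATP, signalling proteins, eicosanoid enzymes, cytoskeletal proteins and nuclear factors. They were named by function, with earlier results of these same libraries known, in which some of them were already seen to be higher without Runx1. All 34 were found by gene symbol and Ensembl identifier among the 37310 genes of the table. Because the choice rests partly on the genotype comparisons, those comparisons are given below as descriptions, with no p-value for a gene. Where a gene is said to rise, fall or miss the threshold between genotypes, this is the call of a model over all genes, and nothing about the 34 genes as a group is read from such calls or their number. The effect of LPS is tested.

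The cells were bone marrow neutrophils of C57BL/6 mice, sorted by surface CD11b and Ly6G with Siglec F and the antigen encoded by Adgre1 as exclusion marks. After sorting, 1000000 cells were incubated for 2 h with vehicle alone or with LPS at 100 ng/mL; LPS is lipopolysaccharide, a component of bacterial cell walls. The 12 libraries formed 4 groups of 3, namely Control with vehicle, Control with LPS, Runx1KO with vehicle and Runx1KO with LPS. Runx1 encodes a DNA-binding factor of blood cells, and the series concerns its role in neutrophil cytokine production after Toll-like receptor signals. The design text gives the Control material as LKS- cells (progenitors) from marrow pooled from a Runx1f/f and a Runx1f/- mouse, the latter with a germline mutation of 1 allele, whereas each Control library is labelled as sorted neutrophils. The sources used here do not settle this, and it bears on every genotype comparison. The same sources do not give the Cre line, the deleted part of Runx1 or the ages of the mice. Nor do they say whether each library is a mouse of its own, so the spread behind each p-value may be partly technical.

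Total counts ranged from 19023610 to 26225169 per library, so that 1 count equalled 0.035 to 0.0562 CPM. CPM, the level scale used below, are counts per 1000000 of a library's total after scaling by trimmed mean of M-values (TMM). Runx1 itself was counted in every library, at 36.8, 56.2 and 38.8 CPM in Control vehicle and 32.3, 50.9 and 26.1 in Control LPS. The Runx1KO libraries had 60.5, 68.3 and 75.4 with vehicle and 58.3, 68.6 and 43.7 with LPS. These gene-level values were not lower in the libraries labelled Runx1KO and sum over all exons, so they do not check the genotype labels. Every direction below rests on those labels. The 12 neutrophil markers summed to 122800 to 194900 CPM in each library, a higher sum than that of any marker list of another cell type. With vehicle this sum was lower in Runx1KO, at 122800 to 158800 CPM against 166500 to 179700 in Control, and with LPS the genotypes overlapped. Ly6g, a marker of the sort, averaged 406 ± 21.2 CPM (SD, n = 3) in Control vehicle and 137 ± 26.9 in Runx1KO vehicle, with no overlap, and 422 ± 42.6 and 222 ± 112 with LPS. The part of these differences in the platelet gene values was not tested.

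A megakaryocyte fills its cytoplasm with alpha and dense granules, builds a coil of microtubules and releases platelets through long extensions into the blood. On a platelet, the glycoprotein Ib-IX-V complex catches von Willebrand factor on a damaged vessel wall, and thrombin, ADP and thromboxane then switch the integrin made of Itga2b and Itgb3 to its fibrinogen-binding state. Platelets carry megakaryocyte RNA and adhere readily to neutrophils, and a number of their genes are also used by other leukocytes. In bulk RNA, more cells or fragments of a type and more RNA in each of them cannot be told apart.

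Most of the genes known best from platelets were nearly uncounted in Control libraries and were counted in every Runx1KO library, from 0.21 CPM (Trpc6) to 17.1 CPM (Pf4), with either treatment. Of all 34 genes, 23 had the 3 Runx1KO vehicle libraries above the 3 Control vehicle libraries and 1, Itgb3, had them below. Over the 12917 genes tested the shares were 5.42% and 7.82%. With LPS the numbers were 22 above and again Itgb3 alone below, against 6.51% and 6.76% of genes tested. In 21 genes all 6 Runx1KO libraries exceeded all 6 Control libraries, against 1.72% of genes tested, and in Itgb3 all 6 were below, against 2.49%.

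A minimum-count filter kept 32 of the 34 genes for the model and left out Gp6 and Myl9. Of the 32, 13 passed the filter only through the Runx1KO libraries, Ppbp, Mmrn1, Clu, Gp5, Treml1 and Alox12 among them, so that counts over the 32 are biased towards a difference. The shares of all genes set beside these counts are given for scale alone, because the genes were named with these differences known. With edgeR's quasi-likelihood model and a threshold of 0.05 on p-values adjusted over all genes, 9 of the 32 rose with vehicle (Pf4, Ppbp, Mmrn1, Clu, Itga2b, Gp5, Treml1, F2r and Alox12). The share of all genes tested that rose was 0.348%. With LPS 6 of the 32 rose (Clu, Itga2b, Gp5, Treml1, F2r and Alox12), and the share of all genes was again 0.348%. All 6 were among the 9, where 0.225% of all genes rose in both. None of the 32 fell, against 0.604% of all genes with vehicle and 0.573% with LPS.

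The median log2 fold change over the 32 was 2.34 with vehicle and 2.17 with LPS, beside 0.00246 and 0.0306 over all genes. With the replicate number as a block, 14 of the 32 rose with vehicle, where Tubb1, Gp9, F2rl2, Nrgn and Rab27b joined the 9. With LPS 9 of the 32 rose with the block, where Pf4, Ppbp and Tubb1 joined the 6, and Itgb3 fell as the only gene of the 32. The vehicle count of 9 went to 5 without Control vehicle library 1 and to 5 without library 3 of that group. The LPS count of 6 went to 1 without Control LPS library 2, to 2 without Control LPS library 3 and to 3 without either Runx1KO LPS library 2 or 3.

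Leaving out 1 library of the groups compared moved some of the differences that had passed by more than 1.5-fold, each time upwards. Without Control vehicle library 1 the log2 fold change with vehicle was 5.42 for Alox12 and 6.32 for Clu. Without Control LPS library 1 the log2 fold change with LPS was 5.28 for Alox12, 4.46 for Clu and 5.28 for Gp5, and without Control LPS library 3 it was 4.16 for Itga2b and 3.95 for F2r. For Mmrn1 without Control vehicle library 2, Gp5 and Treml1 without Control vehicle library 1, and Treml1 without Control LPS library 1, the Control group is left with no count and no size can be read.

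Some differences that had missed the threshold moved by as much, in either direction. Without Control vehicle library 3, which held 31 of the 48 Vwf counts of its group, the difference of Vwf with vehicle was 3.17. Without the same library Rab27b has no count in Control vehicle, so that no size can be read, and it passed the threshold. Without Control LPS library 1 the difference with LPS was 3.94 for Vwf, 2.96 for Gp1ba and 2.64 for Gp9, and Gp9 passed. In the other direction, the difference of Nrgn with LPS was 1.95 without Runx1KO LPS library 3, that of P2ry12 was 0.75 without the same library, and that of Nbeal2 with vehicle was -0.82 without Runx1KO vehicle library 3.

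**Figure D1:**
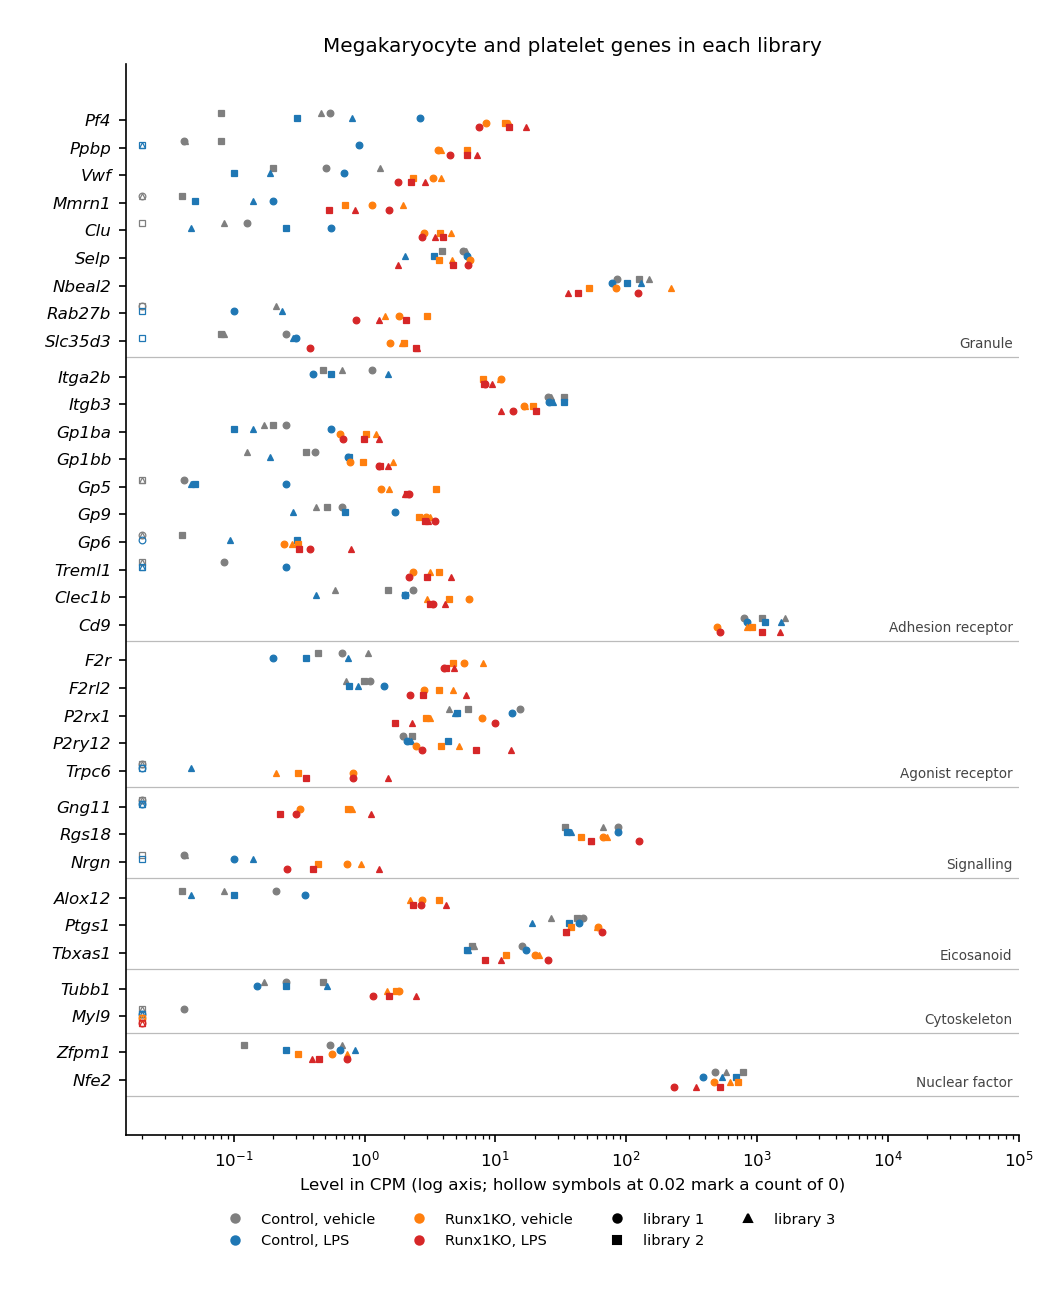
Level of each of the 34 genes in each of the 12 libraries, in CPM on a log axis, grouped by role, with color for the group, shape for the library number and hollow symbols for a count of 0. In 21 genes all 6 Runx1KO symbols lie to the right of all 6 Control symbols, and in Itgb3 alone they lie to the left.

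Among granule proteins, the chemokines Pf4 and Ppbp were nearly uncounted in most Control libraries and reached several CPM in Runx1KO. Pf4, platelet factor of the alpha granule, stood at 0.546, 0.0799 and 0.465 CPM in Control vehicle libraries 1 to 3 and at 2.66, 0.303 and 0.80 in Control LPS. It stood at 8.46, 11.9 and 12.8 CPM in Runx1KO vehicle and at 7.54, 12.8 and 17.1 in Runx1KO LPS. Every Runx1KO library was thus above every Control library. The log2 fold change was 4.91 ± 0.78 (SE) with vehicle, where Pf4 rose, and 3.31 ± 0.71 with LPS, where it missed the threshold and passed with the replicate block (3.47). Control LPS library 1 had 53 of the 76 Pf4 counts of its group, and without it the difference with LPS was 4.47.

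Ppbp encodes the precursor of a neutrophil-attracting chemokine and lies on chromosome 5, as Pf4 does. It had 1, 2 and 1 counts in Control vehicle and 18, 0 and 0 in Control LPS. In Runx1KO it had 90, 137 and 110 counts with vehicle and 105, 134 and 129 with LPS. The 2 genotypes did not overlap, and 1 library again held all Ppbp counts of Control LPS. The log2 fold change was 6.22 ± 1.17 with vehicle, a rise, and 4.28 ± 1.00 with LPS, where it passed with the replicate block (4.47). Without Control LPS library 1 the other 2 libraries of that group are at 0, and no size can be read.

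Per kilobase of exon, Pf4 was the more abundant of the pair in each Runx1KO library, by a ratio of 2.52 to 4.97. Among all 34 genes, only Cd9, Nfe2 and Rgs18 had a higher level per exonic kilobase than Pf4 in Runx1KO vehicle, where Pf4 averaged 15.3 CPM per kilobase. In Control vehicle Pf4 averaged 0.504 CPM per kilobase.

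The larger alpha granule proteins Mmrn1, Clu and Vwf had lower levels per exonic kilobase than Pf4 and Ppbp in the Runx1KO groups, and again did not overlap between genotypes. Mmrn1, the factor V carrier multimerin, had 0, 0.04 and 0 CPM in Control vehicle and 0.201, 0.0506 and 0.141 in Control LPS. Its Runx1KO levels were 1.13, 0.709 and 1.96 CPM with vehicle and 1.54, 0.539 and 0.843 with LPS. The ratio of summed counts with vehicle was 95.6, with a 95% counting interval of 16.8 to 3810, since Control vehicle held 1 count. Mmrn1 rose with vehicle (log2 fold change 6.05 ± 0.96) and missed the threshold with LPS (2.85 ± 0.76).

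Clu, the secreted chaperone clusterin, stood at 0.126, 0 and 0.0846 CPM in Control vehicle and at 0.551, 0.253 and 0.0471 in Control LPS. It stood at 2.87, 3.77 and 4.56 CPM in Runx1KO vehicle and at 2.74, 4 and 3.43 in Runx1KO LPS. The groups were far apart, and Clu rose with both treatments, by 5.64 ± 0.81 and 3.56 ± 0.71 on the log2 scale. Vwf, the adhesive ligand von Willebrand factor, was at 0.101 to 1.31 CPM over the 6 Control libraries and at 1.80 to 3.85 over the 6 Runx1KO libraries. Its log2 fold changes of 2.24 ± 0.69 and 2.79 ± 0.74 did not pass the threshold.

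Selp and Nbeal2 behaved otherwise. Selp encodes P-selectin, the granule receptor that tethers platelets to neutrophils. It stood at 2.02 to 6.11 CPM over Control and at 1.80 to 6.35 over Runx1KO libraries, ranges that nearly coincide. Its exons share 438 and 186 bases with 2 genes on the opposite strand, whose reads cannot be told apart from its own without a known strand setting. Nbeal2, needed to form alpha granules, stood at 77.9 to 150 CPM over Control and 36 to 220 over Runx1KO libraries. Neither gene passed the threshold with either treatment.

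Genes of dense granules and their release were low in Control. Rab27b, a GTPase of granule secretion, was at 0, 0 and 0.211 CPM in Control vehicle and at 1.82, 3.01 and 1.44 in Runx1KO vehicle. Slc35d3, required for dense granules in mice, stood at 0.252, 0.0799 and 0.0846 CPM and at 1.58, 2.00 and 1.93 in the same groups. In both genes all 6 Runx1KO libraries were above all 6 Control libraries. The log2 fold changes were 4.80 ± 1.08 (Rab27b) and 3.68 ± 0.92 (Slc35d3) with vehicle, and 3.57 ± 1.03 and 3.16 ± 0.90 with LPS. None of these passed the threshold, and with the replicate block Rab27b passed with vehicle (4.95).

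Of the 2 chains of the fibrinogen receptor, Itga2b was higher and Itgb3 lower in every Runx1KO library than in any Control library. Itga2b, the alpha chain largely restricted to the megakaryocyte line and early progenitors, stood at 1.13, 0.479 and 0.677 CPM in Control vehicle and at 0.401, 0.556 and 1.51 in Control LPS. It stood at 11.1, 8.07 and 10.8 CPM in Runx1KO vehicle and at 8.26, 8.22 and 9.39 in Runx1KO LPS. The lowest Runx1KO library was above the highest Control library by a wide margin. Itga2b rose by 3.70 ± 0.49 on the log2 scale with vehicle and by 3.38 ± 0.48 with LPS.

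Itgb3, the beta chain, also pairs with another alpha chain in other cells. It stood at 25.4, 33.5 and 26.5 CPM in Control vehicle and at 25.6, 33.3 and 27.5 in Control LPS. It stood at 16.6, 19.3 and 16.8 CPM in Runx1KO vehicle and at 13.7, 20.5 and 11.1 in Runx1KO LPS. All 6 Runx1KO libraries were below all 6 Control libraries. The log2 fold changes of -0.69 ± 0.26 and -0.93 ± 0.26 did not pass the threshold, and with the replicate block the difference with LPS did (-0.96).

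Set per kilobase of exon, Control libraries held 0.0155 to 0.0593 Itga2b for each Itgb3, and Runx1KO libraries 0.433 to 0.913. The beta chain thus outweighed the alpha chain in all 12 libraries, by a far larger margin in Control.

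**Figure D2:**
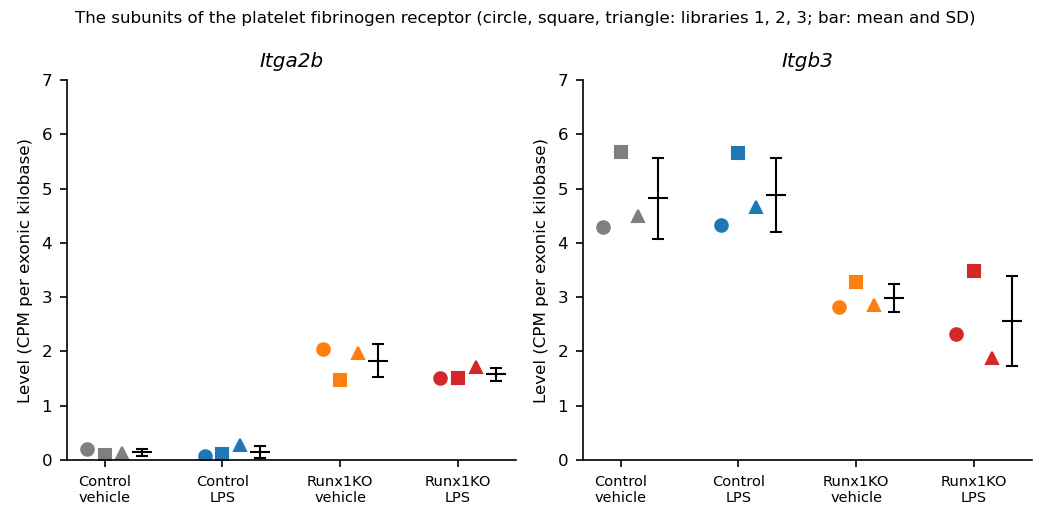
Level of Itga2b (left) and Itgb3 (right) in CPM per kilobase of exon, with 1 symbol per library in the 4 groups and bars for the mean and SD (n = 3). The Runx1KO symbols lie above all Control symbols for Itga2b and below all Control symbols for Itgb3, and the group means with vehicle go from 0.140 to 1.83 and from 4.82 to 2.98.

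All 4 genes of the glycoprotein Ib-IX-V complex were higher in Runx1KO libraries. Gp5 had 1, 0 and 0 counts in Control vehicle and 5, 1 and 1 in Control LPS. In Runx1KO it had 33, 79 and 44 with vehicle and 51, 47 and 36 with LPS. The ratio with vehicle was 149 with a 95% counting interval of 26.4 to 5930. Gp5 rose with both treatments, with log2 fold changes of 6.78 ± 0.92 and 4.13 ± 0.74.

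Gp9 stood at 0.672, 0.519 and 0.423 CPM in Control vehicle and 1.70, 0.708 and 0.282 in Control LPS. In Runx1KO it stood at 2.95, 2.62 and 3.19 with vehicle and 3.47, 2.88 and 3.04 with LPS. Its groups did not overlap, but the log2 fold changes of 2.43 ± 0.53 and 1.80 ± 0.52 missed the threshold, which the first passed with the replicate block (2.48). Gp1ba, the chain that binds von Willebrand factor, stood at 0.101 to 0.551 CPM over Control and at 0.647 to 1.29 over Runx1KO libraries. Its log2 fold changes were 2.19 ± 0.64 and 1.88 ± 0.64. Gp1bb stood at 0.127 to 0.759 CPM and at 0.769 to 1.65, and is uncertain: 1902 of its 2087 exonic bases are shared with Sept5 on the same strand. Sept5 averaged 43.7 CPM in Control vehicle and 25.5 in Runx1KO vehicle, the opposite order to Gp1bb.

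Treml1, a receptor of the alpha granule membrane, had 2, 0 and 0 counts in Control vehicle and 5, 0 and 0 in Control LPS. Its Runx1KO counts were 58, 84 and 91 with vehicle and 51, 67 and 82 with LPS. The ratio with vehicle was 111, with a 95% counting interval of 30.5 to 925. Treml1 rose with both treatments, by 6.54 ± 1.09 and 5.21 ± 0.98 on the log2 scale.

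Gp6, the collagen receptor, was too low to be tested. It had 1 count in Control vehicle and 21 in Runx1KO vehicle, a ratio of 20.1 with a counting interval of 3.23 to 830. With all libraries together its ranges overlapped, since Control reached 0.303 CPM and Runx1KO started at 0.243. Clec1b, the podoplanin receptor, was already present in Control, at 0.424 to 2.35 CPM, and stood at 3.01 to 6.27 in Runx1KO libraries. Its log2 fold changes of 1.61 ± 0.59 and 1.24 ± 0.59 missed the threshold, and 184 of its exonic bases are shared with Clec9a. Cd9, a tetraspanin of platelets and many leukocytes, had the highest mean level per exonic kilobase of the 34 in each group, 579 CPM per kilobase in Control vehicle and 366 in Runx1KO vehicle. Over libraries it stood at 796 to 1652 CPM in Control and 495 to 1499 in Runx1KO.

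Thrombin receptors were higher in Runx1KO libraries. F2r, a protease-activated receptor, stood at 0.672, 0.44 and 1.06 CPM in Control vehicle and at 0.201, 0.354 and 0.753 in Control LPS. It stood at 5.79, 4.79 and 8.06 CPM in Runx1KO vehicle and at 4.02, 4.22 and 4.83 in Runx1KO LPS. There was no overlap, and F2r rose by 3.10 ± 0.48 with vehicle and by 3.30 ± 0.49 with LPS on the log2 scale. F2rl2, a thrombin receptor of mouse platelets that also lies on chromosome 13, stood at 0.719 to 1.40 CPM over Control and 2.23 to 5.96 over Runx1KO libraries. F2rl2 missed the threshold with both treatments, with differences of 2.00 ± 0.45 and 1.83 ± 0.45, and passed with vehicle under the replicate block (1.97).

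Of the purinergic receptors, P2rx1 overlapped between genotypes and P2ry12 did so with LPS. P2rx1, an ATP-gated channel found on platelets and neutrophils, stood at 15.4, 6.19 and 4.44 CPM in Control vehicle and at 7.97, 2.97 and 3.15 in Runx1KO vehicle. P2ry12, the ADP receptor, stood at 1.97, 2.32 and 1.99 CPM in Control vehicle and 2.10, 4.35 and 2.26 in Control LPS. Its Runx1KO levels were 2.47, 3.81 and 5.29 with vehicle and 2.74, 7.05 and 13.2 with LPS. The vehicle groups of P2ry12 were just apart. Neither receptor passed the threshold.

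Trpc6, a diacylglycerol-gated cation channel, had no count in Control vehicle and 1 in Control LPS. Its Runx1KO counts were 20, 7 and 6 with vehicle and 19, 8 and 27 with LPS. Against a floor of 3 counts over the group, Trpc6 was at least 10.5-fold higher with vehicle. The ratio with LPS was 51.9, with a counting interval of 8.93 to 2090. Trpc6 missed the threshold with both treatments.

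Of the signalling genes, Gng11 and Nrgn were divided by genotype and Rgs18 was not. Gng11, a G protein gamma chain, had no count in any of the 6 Control libraries, and in Runx1KO libraries it had 8, 17 and 23 with vehicle and 7, 5 and 20 with LPS. It was at least 15.3-fold higher with vehicle and at least 10.3-fold higher with LPS, against the same floor. Nrgn, the calmodulin-binding neurogranin, stood at 0 to 0.141 CPM over Control and at 0.257 to 1.29 over Runx1KO libraries. Its ratio with vehicle was 26.3, with a counting interval of 6.94 to 223. Rgs18, a regulator of G protein signalling in platelets and myeloid cells, stood at 34.4 to 87.2 CPM over Control and at 45.1 to 126 over Runx1KO libraries. None of these 3 genes passed the threshold, and with the replicate block Nrgn passed with vehicle (4.50).

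Of the eicosanoid enzymes, Alox12, the platelet-type lipoxygenase, was divided by genotype and the thromboxane enzymes were not. Alox12 stood at 0.21, 0.04 and 0.0846 CPM in Control vehicle and at 0.351, 0.101 and 0.0471 in Control LPS. It stood at 2.75, 3.68 and 2.24 CPM in Runx1KO vehicle and at 2.70, 2.34 and 4.22 in Runx1KO LPS. All Runx1KO libraries were above all Control libraries, and Alox12 rose by 4.64 ± 0.69 and 4.17 ± 0.68 on the log2 scale.

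Ptgs1, the constitutive cyclooxygenase, stood at 19.1 to 46.4 CPM over Control and at 34.7 to 65.6 over Runx1KO libraries. Tbxas1, thromboxane synthase, stood at 6.12 to 17.1 CPM and at 8.40 to 25.1. Both ranges overlapped. The log2 fold changes with vehicle, 0.47 ± 0.38 for Ptgs1 and 0.87 ± 0.54 for Tbxas1, did not pass the threshold, and neither did those with LPS.

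Tubb1, the beta tubulin of the platelet microtubule coil, stood at 0.252, 0.479 and 0.169 CPM in Control vehicle and 0.15, 0.253 and 0.518 in Control LPS. Runx1KO libraries held 1.82, 1.73 and 1.47 with vehicle and 1.16, 1.53 and 2.47 with LPS. The genotypes did not overlap, and the log2 fold change was 2.45 ± 0.56 with vehicle and 2.45 ± 0.57 with LPS, short of the threshold. With the replicate block Tubb1 passed it in both comparisons (2.48 and 2.46). Myl9, a myosin light chain of platelets and smooth muscle, had 1 count in all 12 libraries together, in Control vehicle, and 0 in Runx1KO libraries.

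The nuclear factors among the 34, Zfpm1 and Nfe2, overlapped between genotypes with both treatments. Zfpm1, the partner of Gata1, stood at 0.12 to 0.847 CPM over Control and at 0.31 to 0.736 over Runx1KO libraries. Nfe2, a factor of platelet release that neutrophils also express, stood at 384 to 785 CPM over Control and at 234 to 720 over Runx1KO libraries. The log2 fold changes were 0.27 ± 0.68 and -0.15 ± 0.68 for Zfpm1 and -0.03 ± 0.35 and -0.56 ± 0.35 for Nfe2, and neither passed the threshold.

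The 34 genes were also split by how strongly they were counted in Control, at a median of 2 CPM, a limit chosen after the values were seen. At or above it were 10 genes (Cd9, Nfe2, Nbeal2, Rgs18, Ptgs1, Itgb3, Tbxas1, P2rx1, Selp and P2ry12). In 0 of these 10 did all 6 Runx1KO libraries exceed all 6 Control libraries, and 1.11% of the 9225 tested genes at or above the limit did. The other 24 had a Control median under 2 CPM, and in 21 of them all 6 Runx1KO libraries were higher, where 3.25% of the 3692 tested genes under the limit were. The 24 include the 13 genes that passed the filter only through Runx1KO libraries, and nothing is read from this count. The exceptions among the 24 were Gp6, Zfpm1 and Myl9.

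**Figure D3:**
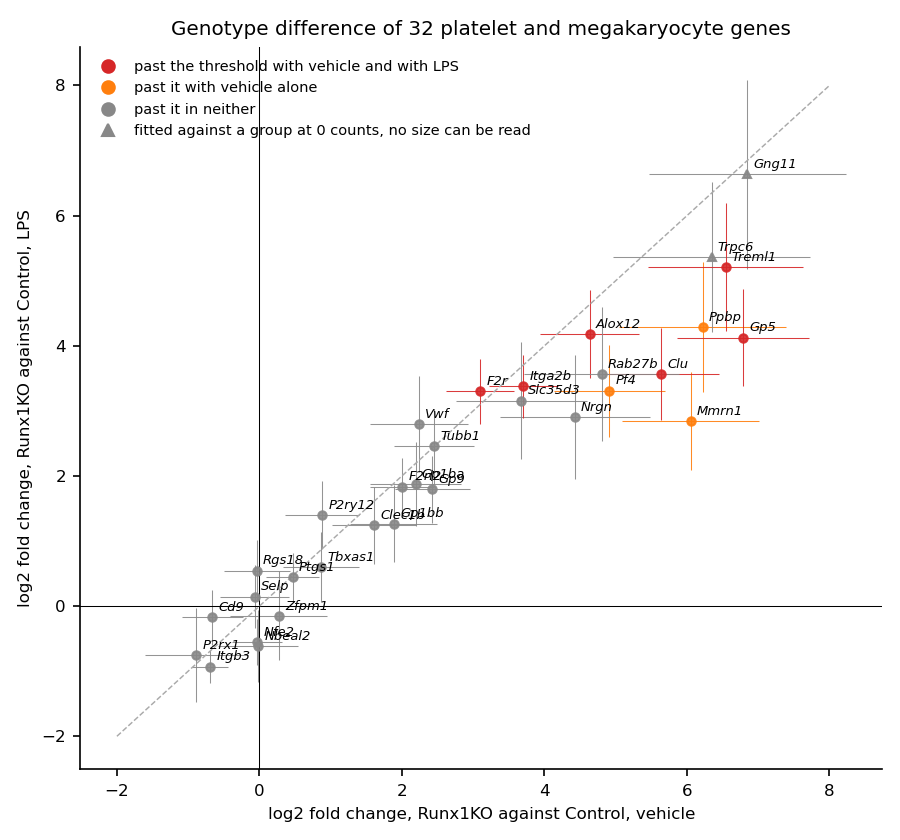
Log2 fold change of Runx1KO against Control for the 32 tested genes, with vehicle on the horizontal axis and LPS on the vertical axis, bars for 1 SE in each direction and the dashed line for equal differences. The 6 genes past the threshold with both treatments lie between 3.10 and 6.78 with vehicle, and Itgb3 lies below 0 on both axes.

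The promoter sequences of 27 of the 34 genes were found in RefSeq on the build GRCm38.p6, and 5 are shown. They belong to a granule chemokine (Pf4), adhesion receptor chains (Itga2b, Gp5 and Gp9) and a protease-activated receptor (F2r). All 5 genes were higher in all Runx1KO libraries. Each is the 250 bases upstream of the gene's start, 5′ to 3′ on the gene's strand. The windows are chr5:90772185-90772434 on the plus strand for Pf4, chr11:102469884-102470133 on the minus strand for Itga2b, chr16:30310782-30311031 on the minus strand for Gp5, chr6:87777820-87778069 on the plus strand for Gp9 and chr13:95618467-95618716 on the minus strand for F2r. Capitals mark the letters of 3 motifs, searched on both strands: GATA as AGATAA or TGATAA, RUNX as TGTGGT or TGCGGT, and ETS as AGGAAG or CGGAAG. A motif on the opposite strand shows as its reverse complement, such as CTTCCT for AGGAAG.

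Pf4: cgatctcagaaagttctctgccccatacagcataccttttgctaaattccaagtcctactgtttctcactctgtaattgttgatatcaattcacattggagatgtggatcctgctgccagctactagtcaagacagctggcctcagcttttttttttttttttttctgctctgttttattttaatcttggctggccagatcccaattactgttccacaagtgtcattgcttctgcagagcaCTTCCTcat

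Itga2b: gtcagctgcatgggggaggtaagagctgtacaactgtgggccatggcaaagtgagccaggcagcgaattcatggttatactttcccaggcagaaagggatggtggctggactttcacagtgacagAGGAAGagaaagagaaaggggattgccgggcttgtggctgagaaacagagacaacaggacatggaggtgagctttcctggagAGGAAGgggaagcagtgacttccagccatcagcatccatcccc

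Gp5: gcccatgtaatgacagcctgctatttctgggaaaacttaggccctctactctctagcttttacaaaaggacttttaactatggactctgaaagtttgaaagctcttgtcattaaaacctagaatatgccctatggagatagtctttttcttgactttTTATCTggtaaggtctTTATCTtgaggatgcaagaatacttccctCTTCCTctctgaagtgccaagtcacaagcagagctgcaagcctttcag

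Gp9: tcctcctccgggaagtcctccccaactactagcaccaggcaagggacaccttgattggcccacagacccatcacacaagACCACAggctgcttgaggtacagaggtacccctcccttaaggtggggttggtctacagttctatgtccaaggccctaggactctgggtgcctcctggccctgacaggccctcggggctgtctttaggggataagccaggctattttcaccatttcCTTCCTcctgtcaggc

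F2r: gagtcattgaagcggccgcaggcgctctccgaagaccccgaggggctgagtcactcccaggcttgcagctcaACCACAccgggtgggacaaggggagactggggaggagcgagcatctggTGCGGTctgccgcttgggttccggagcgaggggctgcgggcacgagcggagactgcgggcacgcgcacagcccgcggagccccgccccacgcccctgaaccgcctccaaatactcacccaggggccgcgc

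The Pf4 window held 1 ETS motif, 4 to 9 bases before the start, and the Itga2b window held 2. The Gp5 window held 2 GATA motifs and 1 ETS motif within the last 93 bases. RUNX letters were in the windows of Gp9 (166 to 171 bases upstream) and F2r (125 to 130 and 173 to 178 bases upstream). Over the 27 windows, 7 held GATA letters (25.9%), 15 held ETS letters (55.6%) and 2 held RUNX letters (7.41%). Of all 32817 promoters in the table, 16.6% held GATA, 39.2% ETS and 18.6% RUNX letters. A match is a run of letters and does not show that a factor is bound there.

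None of the 32 tested genes passed the threshold for LPS. The model called 0.0% of all genes after LPS in either genotype, so this does not show that the 32 are unaffected by LPS. In Control 0 of 32 passed edgeR's quasi-likelihood test, where 0.0% of all genes passed, and the smallest adjusted p was 1.0. Of the 32, 4 had an unadjusted p under 0.05 (Pf4, Mmrn1, Clu and Gp5, all with higher values after LPS), and 0.604% of all genes did. Mmrn1, Clu and Gp5 passed the filter only through the Runx1KO libraries and had few counts in Control, so nothing is read from this number. It was 0 with limma-voom, 5 with DESeq2 and 6 without the filter. The median log2 fold change of the 32 was 0.231, beside -0.0198 over all genes. The number 4 became 1 without Control LPS library 1 or Control vehicle library 2, 2 without Control vehicle library 3 and 8 without Control LPS library 3.

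Control LPS library 1 had the highest level of its group in 13 of the 24 genes with a Control median under 2 CPM, Pf4, Ppbp, Treml1 and Gp9 among them. Gp5 and Mmrn1 were the only genes of the 34 in which the 3 Control LPS libraries lay above the 3 Control vehicle libraries, and 2.84% of all genes tested did so. Both rest on few counts: Gp5 had 1 count with vehicle and 7 with LPS over the groups.

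In Runx1KO libraries 0 of 32 passed the test after LPS, where 0.0% of all genes passed, and 0 had an unadjusted p under 0.05, against 5.23% of all genes. The smallest adjusted p of edgeR's quasi-likelihood test was 0.873, shared by Nfe2 (log2 fold change -0.71 ± 0.35) and P2ry12 (0.99 ± 0.51). Over the alternatives the smallest was 0.21 to 1.0. The median log2 fold change of the 32 was -0.0445, beside 0.0279 over all genes. Gp6, not tested, was the only gene of the 34 in which the LPS libraries lay above the vehicle libraries (3.51% of all genes tested), and in 0 did they lie below (3.2%). Among the platelet genes named above, Pf4 had a log2 fold change of 0.18 ± 0.63, Itga2b of -0.21 ± 0.42 and Treml1 of 0.08 ± 0.73 after LPS. DESeq2 also called 0 of the 32 in either genotype.

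The difference of the LPS responses, Runx1KO minus Control, passed the test in 0 of 32 genes and in 0.0% of all genes. It was below 0 in Pf4 (-1.60 ± 0.97), Gp5 (-2.66 ± 1.22), Clu (-2.08 ± 1.04) and Mmrn1 (-3.21 ± 1.25), with an adjusted p of 1.0 in edgeR's quasi-likelihood test for each. Of the 32 genes only Mmrn1 had an unadjusted p under 0.05, and 0.596% of all genes did. Gp5, Clu and Mmrn1 passed the filter only through the Runx1KO libraries.

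Markers that define the platelet line were summed to set its level beside that of other cells. The 10 core markers (Pf4, Ppbp, Itga2b, Treml1, Gp1ba, Gp1bb, Gp5, Gp6, Gp9 and Tubb1) summed to 3.44, 2.24 and 2.07 CPM in Control vehicle and to 7.62, 3.04 and 3.58 in Control LPS. They summed to 33.4, 39.9 and 40.0 CPM in Runx1KO vehicle and to 31.6, 39.2 and 49.5 in Runx1KO LPS. The ratio of the group means was 14.6 with vehicle and 8.46 with LPS. The sum of all 34 genes, in which Cd9 had the highest level, did not follow this. With vehicle it was 1570 to 2523 CPM in Control and 1291 to 1936 in Runx1KO. With LPS it was 1504 to 2295 CPM in Control and 1187 to 2090 in Runx1KO. All 10 were counted in each Runx1KO library, and 7 to 9 in each Control library.

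In Runx1KO libraries Pf4 took 23.8 to 34.6% of the core counts. In Control libraries, with 49 to 152 core counts, its share was 3.57 to 34.9%.

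**Figure D4:**
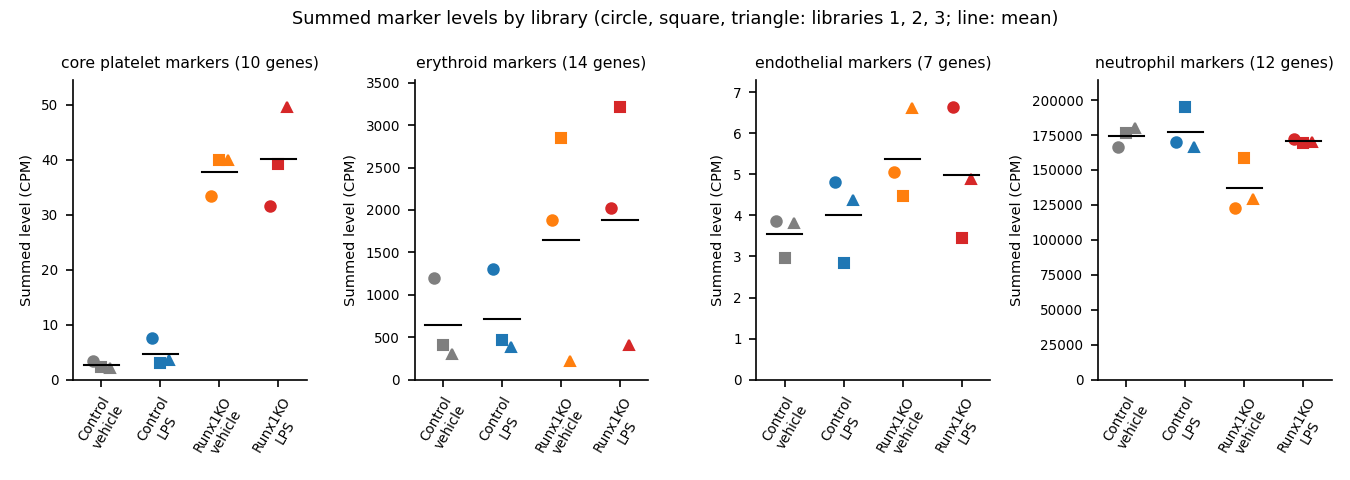
Summed level in CPM of the 10 core platelet, 14 erythroid, 7 endothelial and 12 neutrophil markers, each on an axis of its own, with 1 symbol per library and a line for the group mean. The core platelet sum lies at 31.6 to 49.5 CPM in Runx1KO and at 2.07 to 7.62 in Control, while the erythroid sum spreads widely within each group.

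Erythroid markers were higher in some Runx1KO libraries and not in others. The 14 erythroid genes found summed to 1201, 406 and 307 CPM in Control vehicle and 1306, 461 and 382 in Control LPS. The same sum over Runx1KO libraries was 1881, 2850 and 223 with vehicle and 2025, 3211 and 412 with LPS. In Runx1KO library 3 the erythroid sum lay below the Control libraries with vehicle and between them with LPS. The core platelet sum of library 3 was 39.95 CPM with vehicle, beside 39.89 in library 2. With LPS it was 49.5 CPM, where the TMM factor of library 3, 0.699, was the lowest of all libraries. Its core counts there were 881, beside 872 in library 2. Of the 14, 0 passed the threshold with either treatment, and 13 had a positive log2 fold change with vehicle.

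Stem and progenitor markers summed to 42.8 to 62.3 CPM over Control and to 37.6 to 106 over Runx1KO libraries. Of the 9 tested, Procr, a receptor of stem and endothelial cells, rose with vehicle by 4.09 ± 0.58 on the log2 scale. Mecom was at 0 counts in both Control groups. The 7 endothelial markers summed to 2.83 to 4.81 CPM over Control and to 3.46 to 6.64 over Runx1KO libraries. Of the 4 tested, Tek, a receptor of endothelial and stem cells, rose with vehicle. Tek and Emcn were at 0 counts in both Control groups, and Sox17 in all 4 groups.

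Monocyte and macrophage markers summed to 113 to 525 CPM over Control and to 163 to 1999 over Runx1KO libraries, and 0 of the 9 tested passed the threshold. Basophil and mast cell markers summed to 1689 to 3945 CPM over Control and to 1265 to 4601 over Runx1KO libraries, with Prss34, Mcpt8 and Fcer1a at 0 counts in both Runx1KO groups. In Runx1KO the sum thus rests on other genes of the list, and it is not read as a level of these cells. Of the 7 basophil and mast cell genes tested, the basophil proteases Prss34 and Mcpt8 fell with vehicle, from means of 8.97 and 2.59 CPM in Control, and Prss34 fell with LPS. B lineage sums were 19.1 to 53.8 CPM over Control and 9.35 to 20.8 over Runx1KO libraries, and T and NK sums were 35.2 to 53.9 and 5.22 to 9.81. Of the 7 B lineage genes tested, 2 fell with vehicle and 1 with LPS, Ms4a1 among them with both treatments, from a mean of 1.73 CPM to no count with vehicle. Of the 4 T and NK genes tested, the T cell gene Cd3d fell with both treatments, from a mean of 38.5 to 2.40 CPM with vehicle and from 40.1 to 1.62 with LPS. Cd3d made up most of the T and NK sum in Control. Cd8a of the same list went the other way, from a mean of 0.140 to 0.451 CPM with vehicle and from 0.196 to 0.543 with LPS. The log2 fold change was positive in 2 of the 4 genes with vehicle and in 3 with LPS. Eosinophil sums were 10.9 to 35.3 and 9.47 to 28.7 CPM, and of the 7 genes tested Ear2 fell with vehicle, from a mean of 11.9 to 0.14 CPM. Ccr3, another of the 7, went the other way with vehicle, from a mean of 0.738 to 5.23 CPM, without passing the threshold. The part that any of these other cells have in the platelet gene values was not tested.

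Genes that regulate the megakaryocyte line, mostly transcription factors, formed a list of 15, of which 0 passed the threshold with either treatment. The 3 Runx1KO libraries lay above the 3 Control libraries in 9 of the 15 with vehicle and in 7 with LPS. They lay below in 1 and in 0. Over all genes tested the shares above were 5.42% and 6.51%, and those below 7.82% and 6.76%. These shares are for scale alone, as the list was chosen with earlier results known. Gata1, the main factor of the erythroid and megakaryocyte lines, stood at 0.672, 0.36 and 0.127 CPM in Control vehicle and 0.601, 0.152 and 0.518 in Control LPS. The Runx1KO levels of Gata1 were 1.82, 2.26 and 1.65 with vehicle and 2.65, 2.29 and 1.29 with LPS. The log2 fold change of Gata1 was 2.29 ± 0.62 with vehicle and 2.28 ± 0.62 with LPS. All Runx1KO libraries lay above all Control libraries of the same treatment for Gata1.

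Gfi1b, a repressor shared by the erythroid and megakaryocyte lines, averaged 1.74 ± 0.78 CPM (SD, n = 3) in Control vehicle and 1.11 ± 0.398 in Control LPS. Its Runx1KO means were 3.14 ± 0.694 with vehicle and 3.56 ± 0.539 with LPS. Fli1, an ETS factor used throughout blood, averaged 74.8 ± 9.46, 70.3 ± 1.75, 60.1 ± 21.3 and 55.0 ± 22.5 CPM in the same groups. The median log2 fold change of the 15 genes was 0.633 with vehicle and 0.608 with LPS.

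Further platelet genes outside the 34 stood in 3 lists. Of 17 tested adhesion and signalling genes 0 passed the threshold with either treatment, with medians of 0.58 and 0.653 on the log2 scale. Mpig6b, Ly6g6f and Adra2a of that list, the first 2 of them surface proteins of platelets, were at 0 counts in both Control groups. Mpig6b had 33 counts in Runx1KO vehicle and 28 in Runx1KO LPS, and Ly6g6f had 25 and 18. Of 18 granule and secretion genes tested 0 passed, with medians of 0.154 and 0.13. Of 13 cytoskeleton genes 0 passed, with medians of 0.00714 and -0.0395.

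Genes outside the 34 were ranked by how closely their log2 CPM followed the mean of the 9 tested core markers over the 12 libraries. The first was Cavin2 with a Pearson r of 0.984, followed by Afdn (0.967), Ltbp1, Strc and Gab1 (0.964 each), Gucy1b1 (0.962), Gm1673 (0.956), Lmna (0.953), Ctla2a (0.949) and Abcg2 (0.948). These libraries fall into 2 genotypes, so any gene divided by genotype ranks high. Cavin2, a caveola protein, averaged 0.0703 CPM in Control vehicle and 0.0994 in Control LPS. It averaged 1.69 with vehicle and 1.99 with LPS in Runx1KO. Gucy1b1, a chain of the nitric oxide receptor guanylate cyclase, was at 0 in both Control groups and averaged 0.867 and 1.27 CPM in the Runx1KO groups.

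Within the 34 genes the same measure ranged from 0.998 for Treml1 and 0.990 for Alox12 to -0.877 for Itgb3. Alox12, Clu (0.978) and F2rl2 (0.955) are not core markers and followed their mean as closely as Pf4 (0.971) and Gp9 (0.954), which are part of it. Here too any gene divided by genotype ranks high, as Alox12, Clu and F2rl2 were, so no closer tie is read from these values. Nbeal2 (-0.444), P2rx1 (-0.438), Cd9 (-0.424) and Nfe2 (-0.388) were on the other side of 0, and Selp was at 0.00914.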

How the data were processed

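The deposited values are whole-number counts of reads for each gene in 12 bulk RNA-seq libraries. The authors aligned the reads to mm9 with STAR 2.6.0a and counted them with featureCounts, according to the submitters' processing notes. Annotation release and strand setting are not stated in those notes or in the labels. Intervals and floors cover counting error only, as reads carry no molecular identifiers. The 34 genes and all lists were chosen with earlier results of these data known.

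Of 37310 genes, filterByExpr kept 12917. They were scaled by TMM and fitted in R 4.3.3 with edgeR 4.0.16, all 4 groups together, and contrasts were tested by quasi-likelihood. Benjamini-Hochberg adjustment ran over the 12917 genes (threshold 0.05). SE is the absolute log2 fold change over the square root of F. Folds against a group at 0 took 3 counts as the floor of that group, and count ratios have exact 95% intervals. Log2 CPM used a prior count of 2. For 1 gene alone, an exact two-sided permutation p cannot go below 0.1 here. The fit was tested on simulated data. Changes were placed only in genes with a mean above 2 CPM, and libraries were drawn independently. That test does not cover genes at lower levels or related libraries.

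Genes named outside the 34 were list genes that passed the test (up to 4 per list and direction), Gata1, Runx1, Fli1 and Gfi1b, and the 10 most like the core markers; some genes under this rule are not reported here. Genes at 0 counts, Ly6g, Sept5, Cd8a and Ccr3 were named after their values were seen. Same-numbered libraries, by the numbers in their titles, deviated together between genotypes (r 0.374 to 0.479 with vehicle, 0.429 to 0.566 with LPS). Between vehicle and LPS, r was 0.394 to 0.666 in Control and 0.00575 to 0.537 in Runx1KO. The main fit did not pair same-numbered libraries, for LPS or for genotype, and the replicate block alone did. Alternatives were DESeq2 1.42.0, limma-voom (limma 3.58.1), other scalings, no filter, the replicate block and left-out libraries. Exon lengths, overlaps and promoters come from GRCm38, not the authors' build.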

Additional observations from a re-analysis of the deposited data

How the results depend on the processing

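Of the counts of genes called, those of the genotype comparisons changed with the processing and those of the LPS comparisons stayed at 0 under each alternative run. With vehicle, 9 genes were called higher; DESeq2 called 19, and leaving out libraries of the groups compared gave 0 to 8. With LPS, 6 were called higher; DESeq2 called 17, and leaving out libraries of the groups compared gave 0 to 9. Leaving out 1 of the other 6 libraries, which share the estimate of spread, gave 9 to 11 with vehicle and 4 to 7 with LPS. The 0 came where all 4 libraries of 1 number were left out, which leaves 2 libraries a group. With the replicate block, which pairs libraries of the same number, 14 were called higher with vehicle and 9 with LPS, and 1 (Itgb3) was called lower with LPS; DESeq2 also called Itgb3 lower, as 1 gene. In the comparison of Runx1KO with LPS against vehicle, 1 of the 3 same-number correlations was 0.00575, so the numbers do not pair those groups; the block changed no other call. Without the filter 13 and 8 genes were called, with library sizes alone 9 and 5, with median-of-ratios scaling 9 and 6, and with limma-voom 12 and 8. Library sizes alone moved the median log2 fold change of all genes with LPS from 0.0306 to -0.0817. Per gene, 437 of 477 alternative log2 fold changes with vehicle and 440 of 477 with LPS moved by less than 1 SD between the libraries of a group, and 0 called values changed sign. Genes under 2 CPM in Control rest on few counts there, which limits the precision of their folds.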
